A study of Mus musculus with 30 samples.

Results

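RNA levels in the S fraction of growing C2C12 cells were compared with the levels in both other fractions of the cell cycle, G1 and G2/M. C2C12 is an established line of mouse myoblasts, the precursor cells of skeletal muscle, and is thus a single cell line and not a set of animals. The cells grew in medium with 20% fetal bovine serum, were taken off the dish with trypsin, stained for 15 min with the DNA dye Hoechst and separated on a cell sorter into G1, S and G2/M fractions. No fraction carried a further treatment or genetic change, so growth in serum, the dye and the sort were shared by all 3. RNA-seq was done on 6 of the 30 samples of the series, with 2 columns of fragment counts per fraction, and 2 of these 6 are the S columns. The other 24 samples are ChIP-seq and were not analysed here. The titles of both S columns carry a lot mark that those of G1 and G2/M lack, so any effect of the lot and of the phase cannot be told apart.

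The 2 columns of a fraction were added, since they agreed nearly within counting error, and scaled to a common library size (CPM). Of 46078 genes in the table, 4239 had a mean of 50 CPM or more over the 3 fractions. At that edge, Taf12 entered with a mean of 50.0 CPM and Rbm45 stayed out with 49.9 CPM. For each of the 4239 genes, the S level was set against the G1 level and the G2/M level. A gene lay above both when S was the highest of the 3, below both when S was the lowest, and between otherwise, and its distance was the ratio of S to the nearer of the other fractions. Both ratios of a gene use the same S library. With 1 library per phase there is no test between phases, no p-value is given, and intervals cover counting error only.

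S phase is the part of the cell cycle in which the genome is copied. Its entry is driven by cyclin-dependent kinases and by E2F transcription factors, which switch on genes for nucleotide supply, origin licensing and the replication fork. Licensing loads the MCM helicase onto origins in G1, and licensing proteins such as Cdc6 and Cdt1 are restrained once copying has begun. Genes of mitosis are read mainly in G2, and ribosomal, metabolic and matrix genes are needed throughout growth. Myoblasts in growth express Myf5, Des, Itga7 and Cdh15, and leave the cycle before they fuse.

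The G1 library held 32395232 fragments, the S library 35822319 and the G2/M library 35907974, and the columns between 16109055 and 18103769. Set against each other, the 2 columns gave a chi-square per degree of freedom of 1.00 (G1), 1.03 (S) and 1.15 (G2/M, 1.04 without Gm17082), and a gene's larger column was a median of 1.02 times its smaller one. The spread between libraries was far wider than that. At 50 to 100 CPM the S over G1 ratio had a spread of 0.54 on the log2 scale and S over G2/M 0.46 (SD from the median absolute deviation over 1972 genes), which was 12.6 and 11.1 times the spread that counting fragments gives. The spread narrowed with level, to 0.32 and 0.29 over the 302 genes at more than 500 CPM. Among 11277 genes with at least 100 fragments in some library, 870 (7.71%) were at 0 in another. Of these, 115 were found in S alone, all with fragments in both S columns, so the columns share what made the libraries differ. How much of this spread comes from the cells and how much from making the libraries cannot be told apart with 1 library per phase.

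Of the myoblast markers, Des was at 312, 213 and 285 CPM (G1, S and G2/M in that order, as in every triplet of values here), Itga7 at 286, 273 and 244, and Cdh15 at 95.7, 92.1 and 85.5. Myf5 was at 66.0, 126 and 128 CPM, and Myod1, the regulator that commits cells to muscle, was low, at 6.64, 6.08 and 5.74 CPM. The summed level of 37 sarcomere genes was 204, 133 and 163 CPM, with 14 of them at 0 in every library. Of 30 markers of other cell types, 17 were at 0 in every library, Ptprc, Epcam and Cd3e among them, and the summed level of 3625, 3620 and 3043 CPM was mostly Nes, which myoblasts also express, with Krt14 at 326, 285 and 233 CPM.

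S stood apart from the other fractions less often than they did. A level in a sorted bulk fraction is a share of its RNA, and fewer cells that express a gene or less of its RNA per cell cannot be told apart. By 1.5-fold or more from the nearer phase, S lay above both for 83 genes (1.96%) and below both for 95 genes (2.24%). G1 lay above both for 160 genes (3.77%) and below both for 295 (6.96%), and G2/M lay above both for 119 (2.81%) and below both for 166 (3.92%). At any fold, S was the highest for 1341 genes (31.6%), the lowest for 1253 (29.6%) and between for 1645. G2/M was then close to S, the highest for 32.0% and the lowest for 33.7%, and G1 was the highest for 36.4% and the lowest for 36.8%. With both S columns outside all 4 other columns, 1208 genes (28.5%) lay above and 1124 (26.5%) below. At 2-fold or more the counts were 6 above and 7 below for S, against 26 and 90 for G1 and 11 and 30 for G2/M.

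All 178 genes past 1.5-fold had S columns that did not overlap those of the other phases, and counting intervals clear of no change. The columns of a phase are runs of 1 library and lay a median of 1.02-fold apart. A 1.5-fold call thus left little room for overlap, and its absence adds no support for a difference between phases. Most were of modest level, with a median of 67.7 CPM for those above and 71.5 CPM for those below. S lay above by 1.5-fold for 3.40% of genes at 50 to 100 CPM and for 0.66% of those over 500 CPM, and below for 3.40% and 0.33%. At 50 to 100 CPM the 1.5-fold line, 0.58 on the log2 scale, is close to the spread of 0.54 in the S over G1 ratio. At the edge of the fold rule, Twsg1 passed with S above both by 0.59 and Ccdc9 missed with 0.58, and Rack1 passed at -0.59 and Med22 missed at -0.58. The nearer phase was G2/M for 53 of the 83 genes above and 54 of the 95 below.

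**Figure D1:**
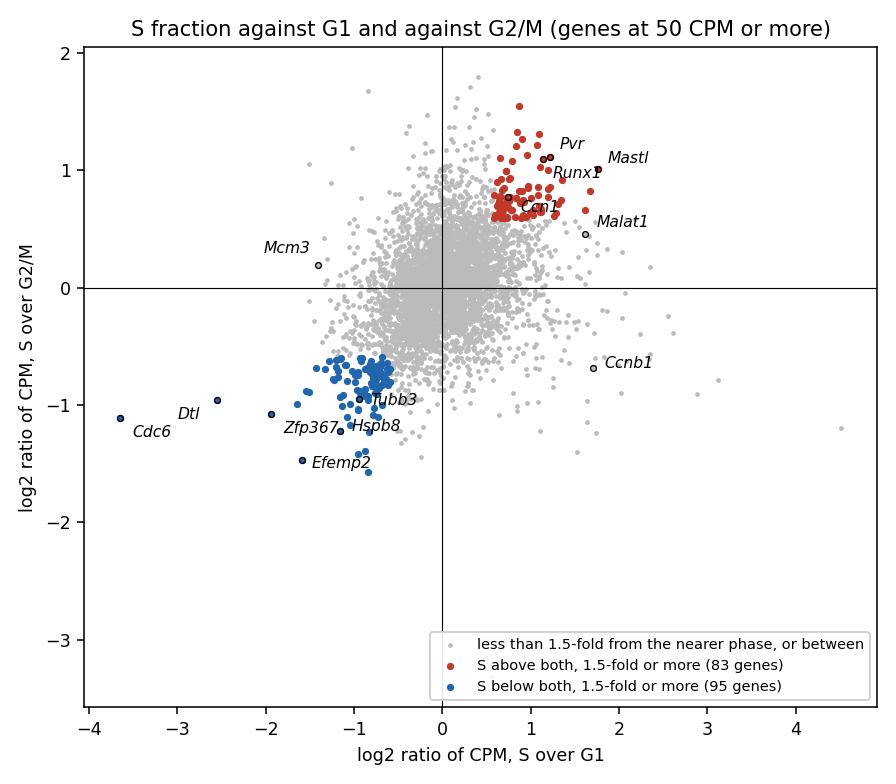
Each point is 1 of 4239 genes with a mean of 50 CPM or more, placed by the log2 ratio of its CPM in S over G1 (x axis) and in S over G2/M (y axis). The 83 genes with S above both fractions by 1.5-fold or more lie in the upper right and the 95 with S below both in the lower left, where Cdc6 and Dtl reach far to the left because G1 is much higher than S.

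Replication and licensing genes were among those for which S was the lowest point. Cdc6, which loads the MCM helicase at origins, Dtl, which directs licensing factors to destruction, Zfp367, a zinc finger transcription factor, and Rpa2, a subunit of the protein that coats single-stranded DNA, were all highest in G1, lowest in S and partly higher again in G2/M. Windows from 250 bases before to 50 bases after the RefSeq start (GRCm38.p6) were searched on both strands for the E2F-type motifs TTTGGCGC and TTTCCCGC. Of 3377 windows matched by symbol, 125 (3.70%) held one, against 9 of 83 (10.8%) for genes with S below both by 1.5-fold, 2 of 69 (2.90%) for genes with S above both and 9 of 44 (20.5%) for the 2 lists of DNA synthesis and licensing genes. Of the 15 named genes with S farthest below both, 4 held the motif, Cdc6, Zfp367 and Dtl and the respiratory chain gene Cox5a. Their windows are shown, on the gene's own strand, with the motif in capitals:
Cdc6, chr11:98907901-98908200, plus strand: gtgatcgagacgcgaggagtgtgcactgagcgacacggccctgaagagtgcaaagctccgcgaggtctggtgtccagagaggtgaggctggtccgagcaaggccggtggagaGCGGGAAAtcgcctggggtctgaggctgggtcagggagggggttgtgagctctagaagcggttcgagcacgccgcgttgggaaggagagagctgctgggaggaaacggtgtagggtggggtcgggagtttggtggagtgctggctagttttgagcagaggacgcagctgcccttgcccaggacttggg
Zfp367, chr13:64153150-64153449, minus strand: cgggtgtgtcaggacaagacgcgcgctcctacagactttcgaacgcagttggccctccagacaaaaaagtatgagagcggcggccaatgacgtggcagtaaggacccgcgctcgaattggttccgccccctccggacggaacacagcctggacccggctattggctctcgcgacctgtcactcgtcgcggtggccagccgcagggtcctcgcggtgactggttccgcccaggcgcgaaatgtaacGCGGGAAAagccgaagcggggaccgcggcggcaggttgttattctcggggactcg
Cox5a, chr9:57520982-57521281, plus strand: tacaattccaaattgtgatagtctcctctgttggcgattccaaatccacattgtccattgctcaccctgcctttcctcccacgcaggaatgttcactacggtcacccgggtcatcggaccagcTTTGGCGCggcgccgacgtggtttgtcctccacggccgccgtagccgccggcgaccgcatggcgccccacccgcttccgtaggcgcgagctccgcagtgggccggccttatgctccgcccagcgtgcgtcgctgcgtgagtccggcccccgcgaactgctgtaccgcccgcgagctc
Dtl, chr1:191575495-191575794, minus strand: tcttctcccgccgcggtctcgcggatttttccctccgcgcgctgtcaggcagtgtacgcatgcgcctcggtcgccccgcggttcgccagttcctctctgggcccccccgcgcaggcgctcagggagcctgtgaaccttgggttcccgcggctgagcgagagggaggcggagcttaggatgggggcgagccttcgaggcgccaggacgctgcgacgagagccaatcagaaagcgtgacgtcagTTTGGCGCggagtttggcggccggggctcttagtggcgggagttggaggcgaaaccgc
The motif begins 138 bases before the start in Cdc6, 5 in Zfp367, 127 in Cox5a and 8 in Dtl. Of the 125 genes with the motif, S lay below both at any fold for 41 (32.8%), where all genes had 29.6%. By 1.5-fold it lay below both for 9 of the 125, where it did for 83 of the 3377 genes with a window and 95 of all 4239 genes (2.24%). These are the same 9 genes as those counted above. A match of letters is a description and no measure of E2F binding.

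Cdc6 (chromosome 11, 98907801 to 98923940) was at 139 and 142 CPM in the G1 columns, 10.3 and 12.1 in the S columns and 24.2 in both G2/M columns. S was thus 12.5-fold lower than G1 and 2.16-fold lower than G2/M, a log2 ratio to the nearer phase of -1.11 (95% counting interval -1.28 to -0.94). Zfp367 (chromosome 13, 64133022 to 64153202) was at 212 and 207 CPM in G1, 53.3 and 56.0 in S and 113 and 117 in G2/M. In both genes the S columns were the lowest of the 6 and G1 the highest, so the gap that counts here is the one to G2/M. Dtl (chromosome 1, 191537356 to 191575544) had the same order, with 136 and 134 CPM in G1, 21.9 and 24.0 in S and 45.1 and 44.0 in G2/M (log2 ratio to G2/M -0.96). Rpa2 was at 91.8 and 89.7 CPM, 30.3 and 31.8, and 55.1 and 59.1 (-0.88). Timeless, a fork-protection factor, was at 72.1 and 74.0 CPM in G1, 35.9 and 39.3 in S and 61.2 and 65.2 in G2/M (-0.75), so its G2/M level came closer to that of G1.

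The rest of these lists was divided. Of 35 measured DNA synthesis and G1/S genes, S lay below both for 11 (31.4%, where all genes had 29.6%), above both for 6 (17.1%, where all genes had 31.6%) and between for 18. Past 1.5-fold were 3, all below, where 2.24% of all genes lay below by that fold. The median log2 ratio was -0.35 for S over G1 and 0.17 for S over G2/M, where all genes had 0.01 for both. Of 16 licensing and firing genes, 3 lay below (18.8%), 4 above (25.0%) and 9 between, with medians of -0.61 and 0.34. Pcna, the sliding clamp of the fork, was at 408, 183 and 170 CPM in G1, S and G2/M, and Mcm3, a subunit of the replicative helicase, at 371, 140 and 123, both between. Rrm2, which makes deoxyribonucleotides, was at 900, 793 and 902 CPM (-0.18). Others were highest in S, without reaching 1.5-fold. Cdc7, the kinase that fires origins, was at 57.3, 81.3 and 35.2 CPM (0.51), Topbp1 at 198, 242 and 161 (0.28), Pola1, the catalytic subunit of polymerase alpha, at 92.7, 111 and 67.0 (0.26), and Brca1 at 68.4, 75.7 and 26.0 (0.15). The cyclins Ccne1 and Ccne2, below the minimum of 50 CPM, were at 59.9, 19.4 and 20.9 CPM and at 85.6, 16.6 and 20.8 CPM, with S and G2/M close together.

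The other 5 genes with the motif and S below both by 1.5-fold, named after their values were seen, were Casp8ap2, Cops3, Ggta1, Cdc25a and E2f3. Casp8ap2, also known as FLASH and needed for histone mRNA processing, was at 76.1, 42.4 and 82.4 CPM in G1, S and G2/M. Cops3, a subunit of the COP9 signalosome, was at 63.0, 36.2 and 63.6 CPM, and Ggta1, a galactosyltransferase, at 68.9, 34.7 and 58.1 CPM. E2f3, one of the E2F activators, was at 93.2, 61.0 and 99.3 CPM, and Cdc25a, the phosphatase that frees the kinases of S phase entry, at 77.9, 49.4 and 83.9 CPM. In Casp8ap2, Cops3, E2f3 and Cdc25a the G2/M level was slightly above that of G1, whereas in Cdc6, Dtl and Ggta1 it was lower. Slbp, the factor that binds the stem-loop of histone mRNA, was at 111, 58.6 and 73.1 CPM (-0.32).

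Beside Cdc6 and Zfp367, the genes with S farthest below both were Efemp2, Hspb8, Cstb and Timm23. Efemp2 (chromosome 19, 5473973 to 5481853), a fibulin of elastic fibres, was at 77.5 and 79.9 CPM in the G1 columns, 26.0 and 26.4 in S and 73.0 and 72.1 in G2/M. S was 3.01-fold below G1 and 2.77-fold below G2/M, the largest gap from both in either direction (log2 -1.47, 95% counting interval -1.58 to -1.36). Hspb8, a small heat shock protein, was at 70.6 CPM in G1, 32.2 and 30.9 in the S columns and 73.5 in G2/M (-1.16). In each of these the G1 and G2/M columns lay close together and the S columns well under them. Cstb, a cysteine protease inhibitor, was at 74.1, 35.1 and 75.4 CPM (-1.08), and Timm23, the channel of the inner mitochondrial membrane for imported proteins, at 122, 59.1 and 133 (-1.05). Tubb3, a beta-tubulin, was the most abundant of the 15 named genes with S farthest below. It was at 255 and 252 CPM in G1, 131 and 132 in S and 251 and 257 in G2/M, a 1.93-fold gap to each (-0.95).

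Between -1.01 and -0.93 lay Fundc2, Blmh, Nop53, Etfdh, Rnf219, Cox5a and Tmed2. Nop53, a ribosome assembly factor, was at 87.3, 27.9 and 55.4 CPM in G1, S and G2/M. Cox5a, a subunit of cytochrome c oxidase, was at 77.2, 39.8 and 82.0 CPM (-0.96). Another gene shares 38.7% of its exon bases, so its count is uncertain.

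**Figure D2:**
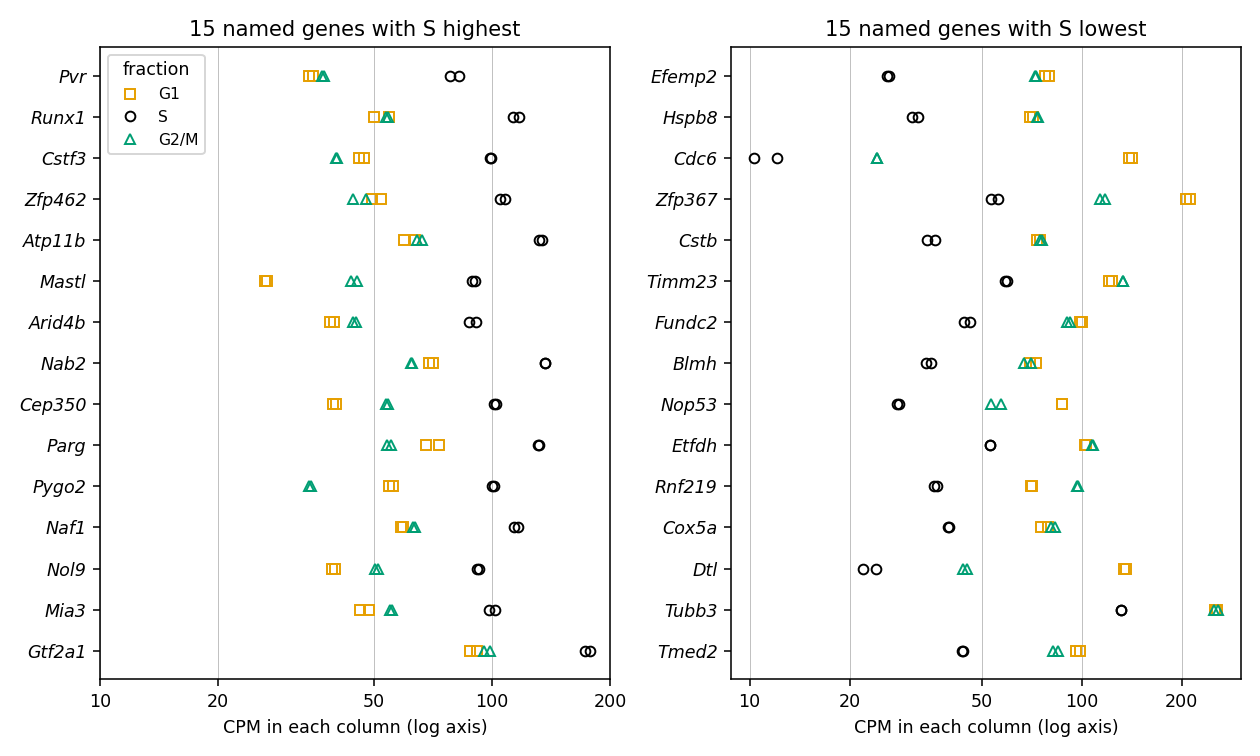
CPM on a log axis in each of the 6 columns for the 15 named genes with S farthest above both other fractions (left) and the 15 with S farthest below (right). Squares are G1, circles S and triangles G2/M, 2 points each. The S points lie clear of the other 4 in all 30 genes, and the points of a pair nearly coincide.

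The translation machinery had its lowest level in S as a group. Of 79 cytosolic ribosomal protein genes, S lay below both for 62 (78.5%, where all genes had 29.6%), between for 17 and above both for none. All 62 had columns that did not overlap, but so had 1124 of all 1253 genes with S below both. Columns of 1 library cannot show how far libraries of a phase would differ. Their summed level was 42084, 31360 and 35813 CPM. The median log2 ratio was -0.40 for S over G1 and -0.23 for S over G2/M. The gap was small for most. Past 1.5-fold were 5 of the 79 genes, where 2.24% of all genes lay below by that fold. They were the 4 leading members by the naming rule and Rps25 (293, 166 and 261 CPM, named after its values were seen). Rps28 was at 142 and 141 CPM in G1, 64.2 and 64.9 in S and 120 and 124 in G2/M (-0.91). Rpl37a was at 336 and 338 CPM, 143 in both S columns, and 242 and 248 in G2/M (-0.78). Rpl38 and Rps21 were at 66.1 and 71.8 CPM in S against 107 or more and 114 or more in the others (-0.69 and -0.67). Abundant members kept the order, as with Rpl13a at 1247, 797 and 1137 CPM and Rps4x at 1580, 1156 and 1481.

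Translation factors showed it as well, with 23 of 40 below both (57.5%) and 6 above (15%), where all genes had 29.6% below and 31.6% above. Eif6, which keeps the large ribosomal subunit from joining too early, was at 298, 157 and 243 CPM (-0.63), and Rack1, a protein of the small subunit, at 544, 362 and 631 (-0.59). Eef1g of the elongation complex was at 511, 342 and 497 CPM and Btf3 of the nascent chain complex at 610, 421 and 657, both -0.54, whereas Eif5 (486, 718 and 637 CPM, 0.17) was highest in S. Ribosome biogenesis genes lay below both in 22 of 45 (48.9%), with Nop16 at 101, 54.4 and 103 CPM (-0.90), and above both in 11 (24.4%), with Nop14 at 77.9, 121 and 86.2 (0.49). Mitochondrial ribosomal protein genes lay below in 6 (42.9%) and above in 3 (21.4%) of 14.

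Many short ribosomal mRNAs begin with a C and a pyrimidine tract. Of 60 ribosomal protein windows, 13 (21.7%) had C at the RefSeq start followed by 4 pyrimidines, against 90 of 3377 (2.67%) of all. S lay below both for 9 of those 13 (69.2%) and for 37 of the 47 without this match (78.7%). The match had to begin at the exact base of the RefSeq start used, so genes without it may still carry the tract. These shares therefore do not compare mRNAs with and without a tract.

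Energy and folding genes were also more often lowest in S than all genes, of which 29.6% lay below and 31.6% above. Of 52 nuclear-encoded respiratory chain genes, S lay below both for 33 (63.5%) and above for 6 (11.5%), with medians of -0.37 against G1 and -0.17 against G2/M. Ndufab1 was at 108, 47.1 and 72.2 CPM (-0.62), Cox6b1 at 110, 57.9 and 87.6 (-0.60) and Atp5o at 96.5, 57.8 and 108 (-0.74), the last with 44.0% of its exon bases in another gene. The 9 measured mitochondrially encoded genes did not share this: S lay between for 8, and mt-Rnr2, the large ribosomal RNA of the organelle, was highest in S (334, 433 and 342 CPM, 0.34). Heat shock and chaperone genes lay below in 18 of 33 (54.5%) and above in 1 (3.03%). Beside Hspb8, Hsf2 was at 114, 53.5 and 84.6 CPM (-0.66) and Cct3 of the tubulin-folding ring at 570, 432 and 597 (-0.40). Of 22 glycolysis and hypoxia genes, 12 lay below (54.5%) and 4 above (18.2%). P4ha1, which hydroxylates collagen, was at 113, 66.2 and 135 CPM (-0.77), Tpi1 at 489, 345 and 450 and Eno1 at 1031, 837 and 1128 CPM, while Hk2 was highest in S at 102, 128 and 114.

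Signal-induced and matrix genes leaned the other way, with S more often the highest. The median log2 ratios of S over G1 and over G2/M were 0.05 and 0.32 for immediate early genes. They were 0.28 and 0.08 for YAP, TEAD and SRF target genes, and 0.18 and 0.21 for matrix genes. The typical member of the first list was thus nearly level with G1, and that of the second with G2/M. Immediate early genes lay above both in 15 of 23 (65.2%, where all genes had 31.6%) and below in 1, YAP, TEAD and SRF target genes in 15 of 30 (50.0%) with 4 below, and extracellular matrix genes in 26 of 41 (63.4%) with 9 below. Ccn1 and Ccn2, secreted matricellular proteins that stand in both of the first 2 lists, led at high levels. Ccn1 was at 346 and 341 CPM in the G1 columns, 580 and 573 in S and 334 and 340 in G2/M (0.75, 95% counting interval 0.71 to 0.78). Ccn2 was at 337 and 335 CPM, 640 and 638, and 418 and 426 (0.60), with 23.2% of its exon bases in another gene. In both the S columns were the highest, and only in Ccn1 were G1 and G2/M alike.

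Errfi1, a feedback inhibitor of the EGF receptor, was at 148 and 145 CPM in G1, 235 and 231 in S and 133 and 128 in G2/M (0.67). Klf6, a zinc finger factor, was at 401, 667 and 441 CPM (0.60). Egr1, an early target of growth factor signals, was at 71.9, 94.9 and 27.4 CPM (0.40), so the main gap was to G2/M. Many of the 15 were barely above: Sgk1, Klf10, Btg1, Ptgs2 and Mcl1 had log2 ratios of 0.03 or less. Columns did not overlap for 12 of the 15, nor for 1208 of all 1341 genes with S above both, so this is no trait of the list. Spry2, an inhibitor of the ERK pathway, went the opposite way, with 70.1 and 65.9 CPM in G1, 33.2 and 36.2 in S and 64.6 and 62.2 in G2/M (-0.87). Below the minimum of 50 CPM, Fos was highest in S (2.87, 10.7 and 6.09 CPM), and Junb, at 47.4 CPM in both G1 and G2/M, was lowest in S. The mean of Fos lay between 5 and 10 CPM. Genes of that level had a log2 spread of 1.41 for S over G1 and 1.29 for S over G2/M, so its order is uncertain.

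Among the other targets of YAP, TEAD and SRF, F3, the tissue factor of clotting, was at 80.3, 124 and 75.7 CPM (0.63), Crim1 at 55.0, 161 and 112 (0.52) and Ankrd1 at 674, 1206 and 877 (0.46). Yap1 itself was lowest in S, at 272, 216 and 258 CPM (-0.25). In the matrix list, Col5a3 was at 56.1 and 53.2 CPM in G1, 99.6 and 97.0 in S and 40.8 and 37.9 in G2/M (0.85), and Col12a1 at 218, 364 and 241 CPM (0.59). Laminin chains shared the order, with Lamb2 at 66.5, 105 and 71.2 CPM, Lamb1 at 255, 448 and 362 and Lamc1 at 155, 240 and 190. Of the 9 below both, those next to Efemp2 were Sparc at 1679, 1261 and 1742 CPM (-0.41), the protease inhibitor Timp1 at 103, 78.5 and 120 (-0.39) and Serpinh1, the collagen chaperone, at 924, 515 and 633 (-0.30), with Plod1 also at -0.30. TGF-beta and SMAD genes lay above in 10 of 19 (52.6%, where all genes had 31.6%) and below in 4 (21.1%, against 29.6%). Tgif1, a repressor of SMAD signalling, was at 29.0, 88.9 and 56.4 CPM (0.66), and the receptor Tgfbr1 lay below at 110, 80.9 and 104 (-0.36).

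**Figure D3:**
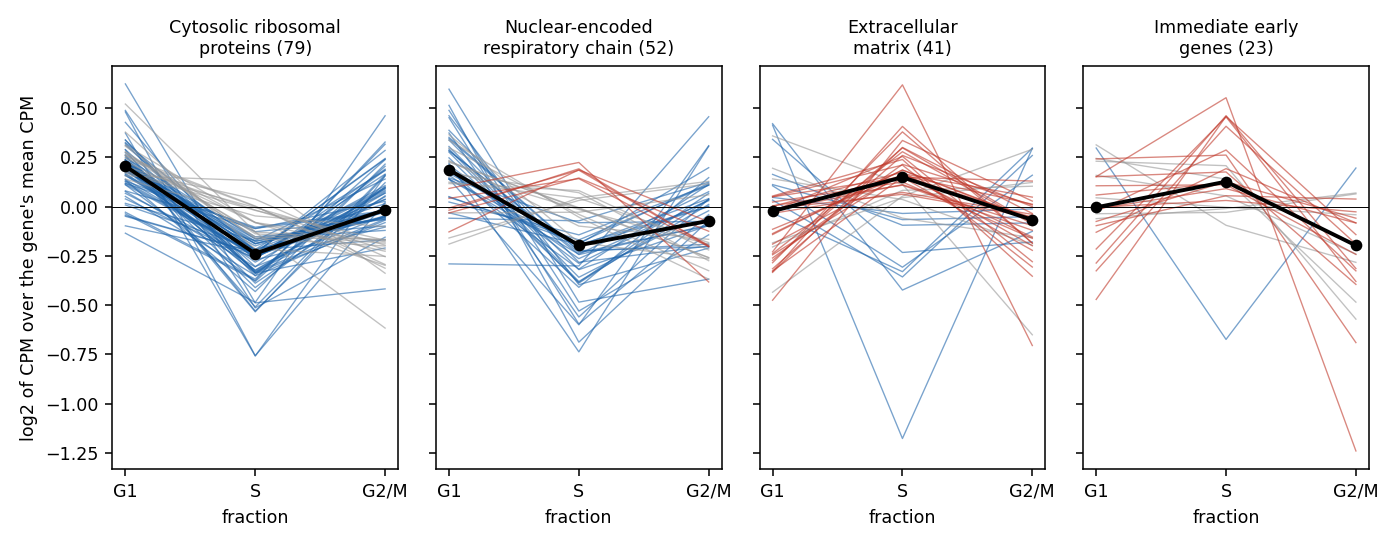
Each line is 1 gene of the list named over the panel, drawn as the log2 of its CPM in G1, S and G2/M over its mean CPM, in red where S is above both other fractions, blue where below and grey where between. The black line joins the list medians, lowest in S for the 79 ribosomal protein and 52 respiratory chain genes and highest in S for the 41 matrix and 23 immediate early genes. The line far under the others in the matrix panel is Efemp2.

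The genes with S farthest above both were Pvr, Runx1, Cstf3, Zfp462 and Atp11b. Pvr (chromosome 7, 19903578 to 19921160), the poliovirus receptor and an adhesion molecule, was at 34.1 and 35.0 CPM in G1, 77.9 and 82.3 in S and 36.8 and 37.3 in G2/M, 2.32-fold and 2.16-fold lower than S (log2 ratio to the nearer 1.11, interval 1.02 to 1.21). Runx1 (chromosome 16, 92601466 to 92826149), a runt-family transcription factor, was at 54.7 and 49.9 CPM, 113 and 117, and 54.2 and 53.6 (1.10). Cstf3, a subunit of the factor that cleaves pre-mRNA at the poly(A) site, was at 45.7 and 47.2 CPM, 99.6 and 98.8, and 40.3 and 39.9 (1.09). In all 3 the G1 and G2/M columns were close and the S columns well over them. Zfp462 followed at 50.8, 107 and 45.9 CPM (1.07) and Atp11b, a phospholipid flippase, at 61.6, 133 and 65.3 (1.03).

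Mastl, the Greatwall kinase that lets cells enter mitosis by holding back PP2A, was at 26.3 and 26.6 CPM in G1, 90.2 and 88.9 in S and 43.5 and 45.3 in G2/M (1.01). Its S level was 3.38-fold above G1 and 2.01-fold above G2/M. Arid4b (1.00), Nab2 (0.96), Cep350 (0.91), Parg (0.90), Pygo2, Naf1, Nol9, Mia3 and Gtf2a1 (0.85) completed the 15. Nab2, which represses the EGR factors, was at 69.9, 136 and 62.2 CPM, with 42.2% of its exon bases in another gene. Cep350, a centrosome protein, was at 39.6, 102 and 53.9 CPM, and Parg, which removes poly(ADP-ribose), at 70.6, 131 and 54.5. All 15 had means of 121 CPM or less, and the spread of S over G1 ratios was 0.54 at 50 to 100 CPM and 0.41 at 100 to 200 CPM.

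Mitotic genes mostly lay between. Of 76, S lay between for 61, above for 7 (9.21%, where all genes had 31.6%) and below for 8 (10.5%, where all genes had 29.6%). Ccnb1 was at 74.3, 242 and 390 CPM, Ccna2 at 152, 364 and 445 and Mki67 at 213, 483 and 579. Kif15, a spindle kinesin, was the exception upward, with 76.0 CPM in both G1 columns, 120 and 117 in S and 69.2 and 69.4 in G2/M (0.64). Cks1b, a partner of the cyclin-dependent kinases, was the exception downward, at 134 and 140 CPM, 81.1 and 83.2, and 130 and 134 (-0.68). Aurkb was at 19.4, 79.4 and 64.5 CPM (0.30). Nuclear pore and transport genes lay above in 18 of 50 (36.0%, where all genes had 31.6%) and below in 12 (24.0%, against 29.6%), with Lbr, the lamin B receptor, at 203, 316 and 189 CPM (0.64) and Nup188 at 55.9, 81.6 and 45.8 (0.55).

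Of 9 measured nuclear-retained and snoRNA-host noncoding RNAs, S lay above both for 6 (66.7%, where all genes had 31.6%) and below for none, and none passed 1.5-fold. Of these 6, Snhg5, Snhg17 and Gas5 are snoRNA hosts, and Gas5 (0.02), like Neat1, was nearly level with G1. Xist was at 732, 1690 and 1139 CPM (0.57), and Malat1 was at 462, 1415 and 1034 CPM (0.45). Both were 2.31-fold or more above G1, so most of the gap lay there. Neat1 was at 193, 196 and 98.0 CPM, with the interval of S over G1 including no change (0.02, interval -0.03 to 0.07). SR protein and hnRNP genes lay above in 19 of 51 (37.3%) and below in 10 (19.6%, where all genes had 29.6%), with Srrm1 at 121, 220 and 167 CPM (0.40).

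Chromatin genes were divided. Of 19 modifiers of H3K4 and H3K27, 8 lay above (42.1%, where all genes had 31.6%) and 6 below (31.6%, against 29.6%). Ezh2, which methylates H3K27, was at 199 and 203 CPM in G1, 147 and 149 in S and 209 and 203 in G2/M (-0.44), while its cofactor Aebp2 was at 208, 311 and 224 CPM (0.48) and Kmt2d, which methylates H3K4, at 118, 173 and 132 (0.38). The list of histone variants and chaperones also holds high mobility group genes, such as Hmgn2 and Hmga2, which are neither. S lay below both in 13 of its 28 genes (46.4%), Hmgn2 at 108, 69.5 and 103 CPM among them (-0.57). It lay above in 4 (14.3%), with Hmga2 at 394, 554 and 306 (0.49) and H1f0 at 314, 438 and 266 (0.48). Only 2 genes of the replication-dependent histone list were measured, Hist1h1c (101, 71.7 and 99.5 CPM, -0.47) and H1f0. H1f0 is listed as a histone variant as well, so it does not stand for the replication-dependent genes. Core histone mRNAs lack a poly(A) tail, and no source used here says how RNA was selected for the libraries.

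In the remaining lists, beside 31.6% above and 29.6% below for all genes, S lay above in 7 (30.4%) and below in 4 (17.4%) of 23 cholesterol genes, in 5 (14.3%) and 12 (34.3%) of 35 proteasome genes, and in 4 (19%) and 8 (38.1%) of 21 ATF4 and stress genes. It lay above in 4 (33.3%) and below in 5 (41.7%) of 12 p53 targets, in 3 and 3 of 14 myogenic genes (21.4% each) and in 0 and 1 of 5 Notch genes. Of myogenic regulators, Id2, which holds back differentiation, was at 48.5, 89.0 and 64.5 CPM (0.47). The 1 measured sarcomere gene, Tnnt2, was alike in S and G2/M (96.6 and 97.1 CPM), and of 3 markers of other cell types Runx2 was above at 65.1, 103 and 85.7 CPM.

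**Figure D4:**
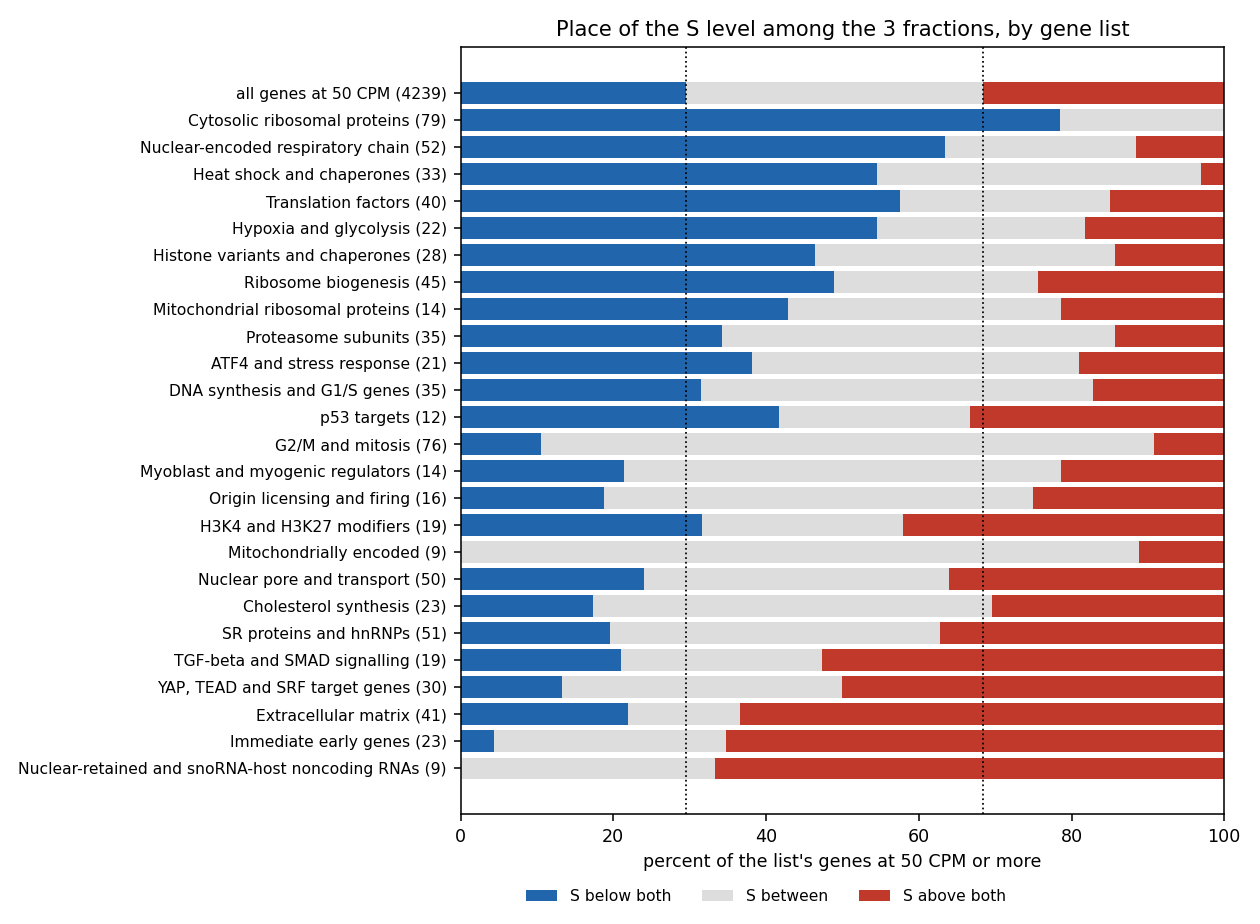
Stacked bars give, for each list with at least 9 genes at 50 CPM or more, the percent of its genes with S below both other fractions (blue), between (grey) and above both (red), with the number of genes in brackets and lists ordered by the difference of red and blue. Dotted lines mark the shares of all 4239 genes, 29.6% below and 31.6% above. Ribosomal proteins reach 78.5% below with none above, and immediate early genes 65.2% above.

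Gene length moved with the place of S. Over 5 groups of nearly equal size by exon bases, S lay above both for 16.6% of the shortest (2616 bases or less) and 46.6% of the longest (7936 or more), and below both for 46.0% and 17.9%. At 1.5-fold, S lay above for 5 of the shortest and 30 of the longest and below for 39 and 10. The median log2 ratio of S over G1 went from -0.22 to 0.28 across these groups, and that of S over G2/M from -0.08 to 0.06, so the gradient lay mainly between G1 and the other fractions. G1 had it in reverse, above both for 54.0% of the shortest and 17.3% of the longest. The genes with S above both by 1.5-fold had a median of 5861 exon bases, those below 3064, and all genes 4572.

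The median exon length was 1586 bases for ribosomal proteins, 1778 for the respiratory chain and 6765 for the matrix genes, but 3189, below that of all genes, for the immediate early genes, which leaned above. With each ratio centred on the running median of the genes of like length, S still lay below both for 48 of 79 ribosomal protein genes and above for 4, and for the respiratory chain below in 28 and above in 10 of 52, where 30.0% of all genes lay below and 29.8% above. Matrix genes then lay above in 19 of 41, and immediate early genes above in 16 of 23. The part of RNA quality or library making in this gradient was not tested.

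**Figure D5:**
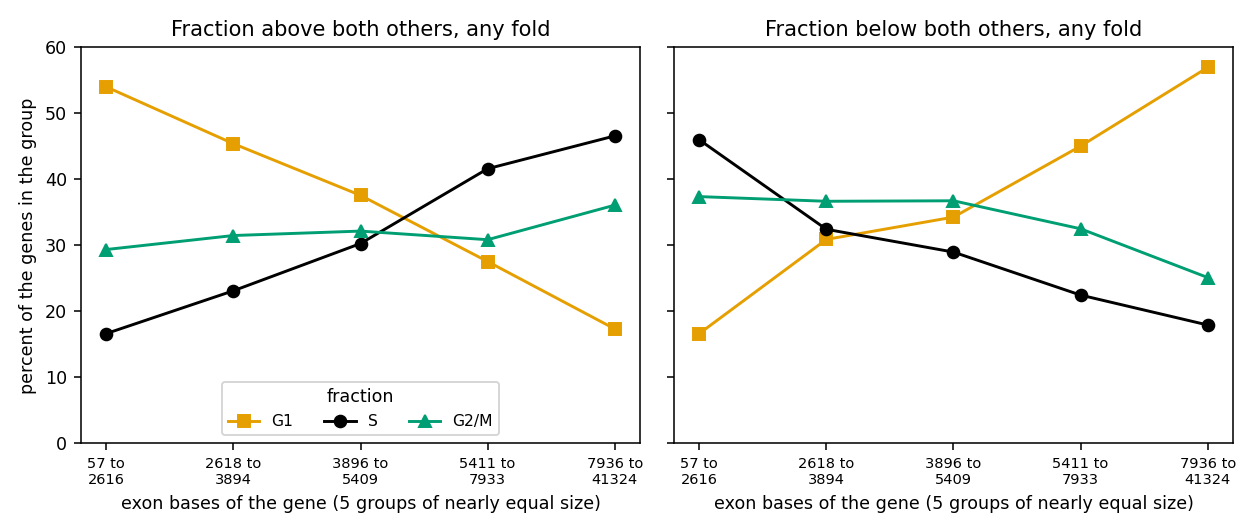
Percent of genes for which each fraction lies above both others (left) or below both (right) at any fold, over 5 groups of genes of nearly equal size by exon bases, shortest on the left. Circles for S climb from 16.6% to 46.6% above both and go down from 46.0% to 17.9% below both, and squares for G1 run in the opposite direction, while triangles for G2/M change least.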

How the data were processed

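The deposited values are raw counts for each gene, which the authors obtained from read pairs in exons using featureCounts 1.5.0-p3, per the file headers. The header's command names no option for strand or multiply mapping reads, so genes that overlap or have close copies are uncertain. Each read ran for 101 cycles (labels' protocols), and HISAT2 2.1.0, SAMtools 1.6 and the build GRCm38 are named per the submitters' processing notes. Here the 2 columns of each phase were summed, scaled with edgeR 4.0.16 TMM factors (0.9895 to 1.0100 over 12832 genes) in R 4.3.3 and turned into CPM. Genes with a mean of 50 CPM or more were kept, and symbols were matched for 45143 of 46078 genes. Log2 ratios have no pseudocount, and exact 95% intervals (Clopper-Pearson, scipy 1.17.1) cover counting error only. The count test could not be used between phases with 1 library each. The scripts were tested on simulated data. Named were the 15 genes with the largest ratio to the nearer phase in each direction, up to 4 per list of 29 lists, and 17 fixed genes; other named genes were chosen after their values were seen, or show where a list's members lie. Lists and members were chosen with earlier results of these data known. Alternatives were other scalings (DESeq2 1.42.0 size factors among them), minimums, folds, single columns, length centring and, chosen after seeing the data, genes sharing no exon base. Spread by level and non-overlap of columns were also computed after seeing the data. Promoter windows are RefSeq's, GRCm38.p6.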

Additional observations from a re-analysis of the deposited data

How the results depend on the processing

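The 83 genes above both and 95 below both were 79 and 97 with library size alone, 77 and 98 with DESeq2 size factors, 82 and 115 without ribosomal protein and mitochondrially encoded genes in the library size, and 69 and 88 with ratios centred over exon length, which shared 58 and 69 genes with the first counts. Single columns gave 83 to 87 above and 95 to 95 below. The level minimum set the counts: 246 above and 312 below at 20 CPM, 16 and 28 at 100 CPM, and 885 and 1074 with no minimum beyond 1 fragment in each library. So did the fold, with 343 and 375 at 5/4-fold and 6 and 7 at 2-fold. Among genes sharing no exon base 64 lay above and 62 below, of fewer genes. Of 57 named genes past 1.5-fold, 10 came under it in some scaling, length or single-column setting and none turned: Col12a1, Ccn2, Rack1 and Ndufab1 by scaling or column, and Atp5o, Cks1b, Cox6b1, Mrps6, Rpl38 and Rps21 with length centring. The median log2 ratio of S over G1 of the myogenic list turned from 0.10 to -0.0165 with length centring. No paired analysis was possible because the columns of a phase are repeat runs, summed to 1 library, and their numbers pair nothing between phases. Each gene at 50 CPM or more had at least 69 fragments in every library, but there was only 1 library per phase. How many distinct RNA molecules these fragments came from was not tested.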

Other observations

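Timm23 and Parg, both named by their distance from the other fractions, lie back to back on chromosome 14 and stood at opposite ends in S. Timm23 is on the minus strand (32180162 to 32201898) and Parg on the plus strand (32201949 to 32297550), so their starts face away from each other. Timm23 was lowest in S, at 122, 59.1 and 133 CPM in G1, S and G2/M, and Parg highest, at 70.6, 131 and 54.5 CPM. The pair was picked after the values were seen, and how often neighbouring genes stand apart in this way was not tested. Timm23 has 1786 exon bases and Parg 5778, so their places also follow the length gradient described above.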
